A study of Mus musculus with 12 samples.

Results

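Of the 15838 genes measured in corneal endothelium, 10 genes of leukocytes and of antigen presentation are described here, and all 10 had values. They were chosen by name. The MHC class II genes are *Cd74*, *H2-Aa*, *H2-Ab1* and *H2-Eb1*, the MHC class I genes are *H2-K1*, *H2-D1* and *B2m*, and the leukocyte genes are *Ptprc*, *Csf1r* and *Lyz2*. The study compared C57BL/6 mice in which *Slc4a11*, the gene of a membrane transporter of corneal endothelial cells, carries a homozygous targeted deletion (*Slc4a11*-/-, KO) with *Slc4a11*+/+ (WT) littermates, in both sexes, and asked whether the effect of the deletion on the corneal endothelial transcriptome depends on sex. RNA came from the Descemet membrane with its endothelium, stripped from the cornea at 10 weeks of age, and was sequenced in 12 libraries, 3 each from KO male, KO female, WT male and WT female mice. The deletion is present in every cell of the KO mice, immune cells included, and not only in the corneal endothelium. The labels and methods name no other allele or agent for the 4 groups.

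MHC class I molecules display peptides made inside the cell to cytotoxic T cells. Nearly every nucleated cell makes them, each as a heavy chain, here encoded by *H2-K1* or *H2-D1*, paired with the invariant light chain β2-microglobulin from *B2m*, and interferons raise their transcription in many tissues. MHC class II molecules display peptides from ingested proteins to helper T cells and are made mainly by dendritic cells, macrophages and B cells. *H2-Aa* and *H2-Ab1* encode the α and β chains of the A molecule, *H2-Eb1* encodes the β chain of the E molecule, and *Cd74* encodes the invariant chain that fills the groove until a peptide is loaded. C57BL/6 mice lack a working gene for the α chain of the E molecule. *Ptprc* encodes CD45, a phosphatase found on all nucleated blood cells, *Csf1r* the growth factor receptor on which macrophages depend, and *Lyz2* the lysozyme of macrophages and neutrophils. The cornea holds resident macrophages and dendritic cells, mainly in its stroma and epithelium, and immune cells in the preparation may be the source of these transcripts, which was not tested. In RNA from a whole tissue, fewer cells of a type and less RNA per cell cannot be told apart.

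Values come from the authors' deposited tables of a limma fit with voom weights, which give for each gene a mean level over the 12 libraries in log2 CPM (read counts scaled to the size of the library), a log2 fold change (log2FC) and its test, but no values for single libraries. How deeply a library was sequenced is thus unknown, and precision is given by the standard error (SE) of each log2FC. Group levels in CPM were estimated from the mean level and the fitted effects, without an error of their own. A gene was called where its Benjamini-Hochberg adjusted p over all 15838 genes, from limma's two-sided moderated test, was under 0.05. The p-values measure the spread between libraries, since the sample records speak of pooled membranes and the study's methods of the paired membranes of single mice. The deleted gene had a log2FC of -1.83 ± 0.22 (SE) in males (adjusted p = 0.000522) and of -2.89 ± 0.22 in females (adjusted p = 2.77e-05). Of 20 corneal endothelial markers, all had values, and the 19 other than *Slc4a11* itself summed to 23550 CPM in WT male, 25598 CPM in KO male, 23939 CPM in WT female and 26387 CPM in KO female libraries. The tables do not name the sex to which the genotype term belongs, and this was read from the precision of genes that 1 sex hardly expresses. For 4 genes of the Y chromosome (Ddx3y, Eif2s3y, Kdm5d and Uty) the SE of the genotype term was 0.26 to 0.37, and that of the genotype term plus the interaction 2.08 to 3.01, whereas for Xist, which females express, they were 5.35 and 1.52. The genotype term is therefore the effect in males.

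Loss of *Slc4a11* was accompanied by a called rise of *H2-D1* in females and, over both sexes, a called fall of *Cd74*. None of the 10 genes was called in males, where 5.47% of all genes were, and 1 of the 10, *H2-D1*, was called in females, where 1.42% of all genes were and 0.474% were called higher. The log2FC in males was below 0 for 10 of the 10 genes, compared with 52.8% of all genes, with a median of -0.63 against -0.02 over all genes. In females it was above 0 for 6 of the 10, compared with 50.8% of all genes, and 18.1% of all genes were below 0 in males and above 0 in females. The 6 were the class I and leukocyte genes, and the 4 class II genes were below 0 in both sexes. The effects in the sexes are compared by the interaction, the effect in females minus that in males, which was called for none of the 10 genes (0.543% of all genes). At an unadjusted p under 0.05 there were 5 of the 10 for the interaction (10.2% of all genes), 5 in females (15.9%) and 2 in males (21.9%). The adjusted p of *H2-D1* for the interaction was 0.0542, and it passed the threshold when the male, interaction and sex contrasts were adjusted together (adjusted p = 0.0352) or when only genes with a mean of at least 10 CPM were adjusted (adjusted p = 0.0349).

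**Figure D1:**
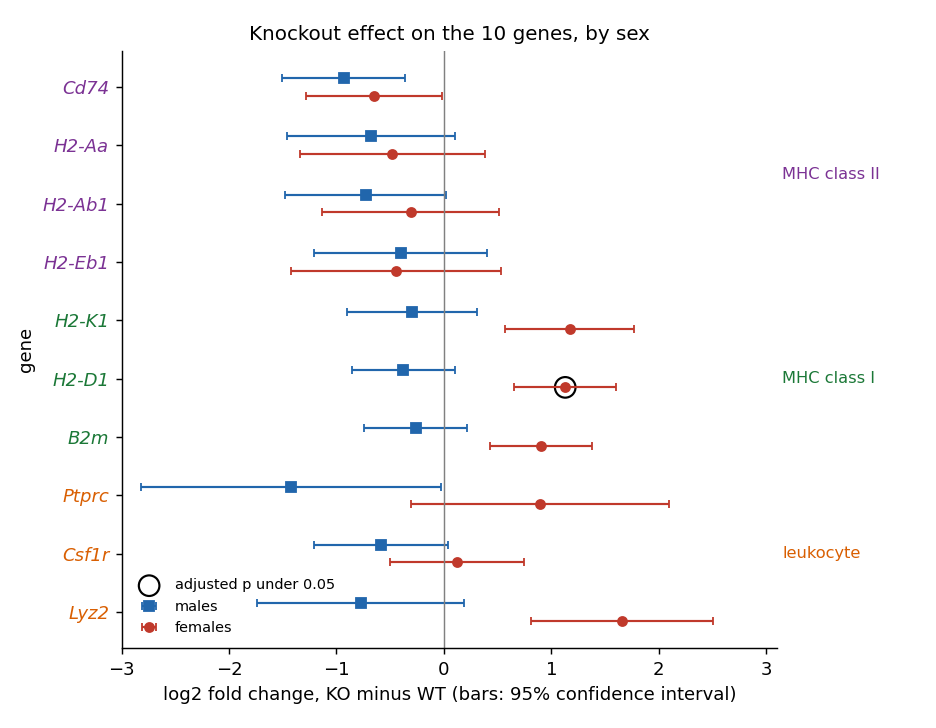
Knockout effect on each of the 10 genes. The x axis is the log2FC of KO minus WT with its 95% confidence interval, squares are males, circles are females, and a black ring marks an adjusted p under 0.05. All 10 squares lie below 0, the circles of the 6 class I and leukocyte genes lie above 0, and only the female value of H2-D1, at 1.13, has a ring.

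The class I genes had the highest levels of the 10. Per kilobase of exon the mean level was 198 CPM for *B2m*, 82.3 CPM for *H2-D1* and 53.3 CPM for *H2-K1*, and the next gene, *Lyz2*, had 15.0 CPM. *H2-D1*, one of the classical heavy chains (plus strand, chr17:35262730-35267499 of GRCm38), had an estimated level of 203 CPM in WT male, 156 CPM in KO male, 171 CPM in WT female and 374 CPM in KO female libraries. The KO female level was the highest of the 4 groups. In females *H2-D1* rose by 1.13 ± 0.22 on the log2 scale, a 2.19-fold difference (95% confidence interval of the log2FC 0.65 to 1.61, adjusted p = 0.0225). With the stricter Benjamini-Yekutieli adjustment it was not called (adjusted p = 0.230). In males its log2FC was -0.38 ± 0.22 (-0.86 to 0.10, adjusted p = 0.338), an interval that holds 0. The effect in females exceeded that in males by 1.51 ± 0.31 (0.83 to 2.18, adjusted p = 0.0542).

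*H2-K1*, the other classical heavy chain (minus strand, chr17:33996017-34000347), had estimated levels of 143 CPM in WT male, 116 CPM in KO male, 127 CPM in WT female and 286 CPM in KO female libraries. Again the KO female level was the highest. Its log2FC in females was 1.17 ± 0.28 (0.57 to 1.77, adjusted p = 0.0574), a 2.25-fold difference that missed the threshold, and in males -0.30 ± 0.28 (-0.90 to 0.31, adjusted p = 0.556). The interaction was 1.47 ± 0.40 (adjusted p = 0.140).

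*B2m*, the light chain shared by both heavy chains, lies on another chromosome (plus strand, chr2:122147686-122153083). Its estimated levels were 163 CPM in WT male, 136 CPM in KO male, 143 CPM in WT female and 267 CPM in KO female libraries, the highest in KO females. Its log2FC was 0.91 ± 0.22 in females (0.43 to 1.38, adjusted p = 0.0602) and -0.26 ± 0.22 in males (-0.74 to 0.21, adjusted p = 0.505), and the interaction was 1.17 ± 0.31 (adjusted p = 0.134). The effects of the 3 class I genes thus lay between -0.38 and -0.26 in males and between 0.91 and 1.17 in females.

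**Figure D2:**
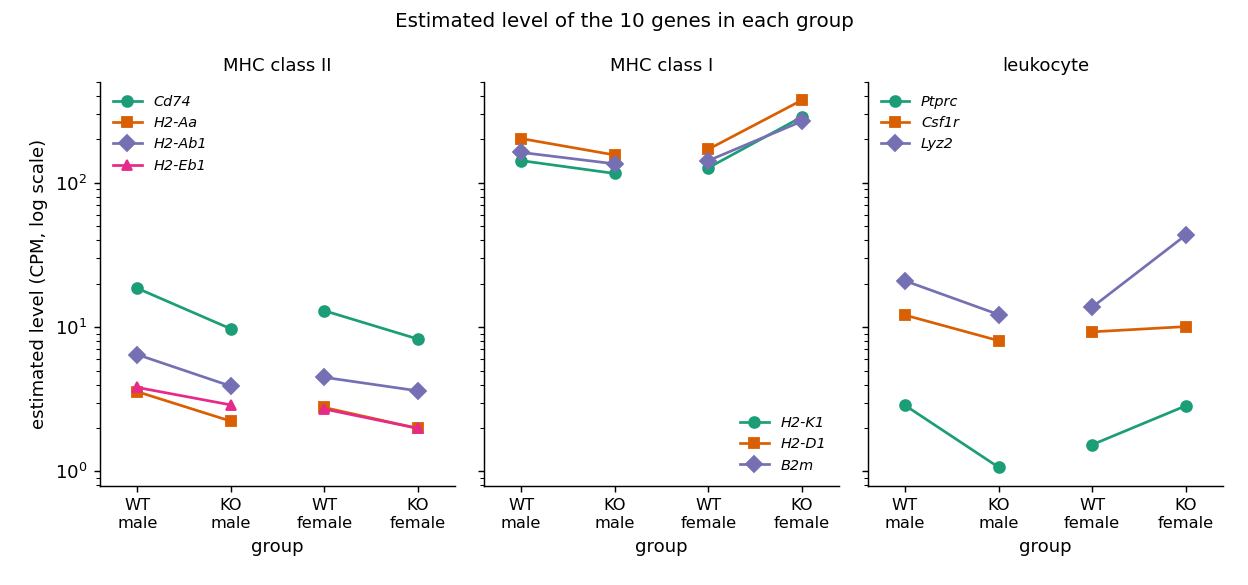
Estimated level of each gene in the 4 groups, in CPM on a log axis, with a line from WT to KO within each sex. The class I genes sit at 267 to 374 CPM in KO females and at 116 to 203 CPM in the other groups, while all 4 class II genes lie lower in KO than in WT of the same sex.

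Because *H2-K1*, *H2-D1* and *B2m* had like effects, the 190 bases before their RefSeq start sites (GRCm38.p6) are shown, read 5′ to 3′ on the strand of the gene. Capitals mark matches to 5 motifs on either strand, chosen from textbook knowledge with the values known. These are the cores of the κB motif (GGGGATTCC), of the interferon consensus sequence of class I promoters (AGTGAAACT) and of the interferon-stimulated response element or ISRE (GAAANNGAA), the CCAAT box (CCAAT) and the cyclic AMP response element (TGACGTCA). No match overlapped another. The windows lie at chr17:34000348-34000537 (minus strand, the most upstream of 2 starts) for *H2-K1*, at chr17:35262904-35263093 (plus strand) for *H2-D1* and at chr2:122147497-122147686 (plus strand) for *B2m*.
H2-K1: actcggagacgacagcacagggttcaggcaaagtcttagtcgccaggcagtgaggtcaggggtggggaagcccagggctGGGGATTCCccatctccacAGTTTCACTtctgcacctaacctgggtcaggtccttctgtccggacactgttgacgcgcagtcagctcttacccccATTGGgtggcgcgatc
H2-D1: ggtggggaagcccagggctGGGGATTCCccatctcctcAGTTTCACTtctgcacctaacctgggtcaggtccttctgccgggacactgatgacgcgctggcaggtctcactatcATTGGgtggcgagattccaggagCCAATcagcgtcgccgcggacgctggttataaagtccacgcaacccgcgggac
B2m: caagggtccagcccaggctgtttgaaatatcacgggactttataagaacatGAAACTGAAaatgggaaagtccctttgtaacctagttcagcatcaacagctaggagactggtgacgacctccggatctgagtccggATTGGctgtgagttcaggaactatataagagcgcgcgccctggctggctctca
*H2-K1* and *H2-D1* each held the κB core and, on the reverse strand, the interferon consensus core. The κB core began 111 bases before the start in *H2-K1* and 171 bases before it in *H2-D1*. Aligned with gaps, 118 of 130 paired bases were identical (90.8%). The alignment also held 120 gap bases, so the identity covers only the paired part of the 190-base windows. Over the 250 bases before the start, 70 of 32851 RefSeq promoter windows held the κB core (0.213%) and 88 held the interferon consensus core (0.268%), and the windows of the class I genes *H2-Q6* and *H2-Q7* held both. *B2m* held the ISRE core, which 7.13% of all windows held, 139 to 131 bases before its start, and a reverse CCAAT box, which 33.8% of all windows held. A match is only a run of letters in the window, and no binding was measured here. Of 50-base windows in the transcripts of *H2-D1*, 12.8% also occurred in transcripts of other genes, and 9.63% of those of *H2-K1* did, so reads could have been split between class I genes in the counting. *B2m* had no such shared window.

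The listed partners of class I were other class I and class I-like heavy chains, the machinery that trims peptides and loads them, and the regulators *Nlrc5* and *Irf1*. Of 26 listed, 24 had values, with a median log2FC of -0.24 in males and 0.14 in females, and 14 of them were below 0 in males and above 0 in females, against 18.1% of all genes. In males 1 of the 24 was called, compared with 5.47% of all genes. It was *Psmb8*, a catalytic subunit of the immunoproteasome, which fell by 1.24 ± 0.33 on the log2 scale (adjusted p = 0.0464). No partner was called in females or for the interaction. At an unadjusted p under 0.05 there were 6 of 24 in females (15.9% of all genes) and 8 of 24 for the interaction (10.2%). Among the heavy chains, 4 that were chosen after their values were seen, none of them called, had log2FC in males and females of -0.61 ± 0.35 and 0.62 ± 0.31 for *H2-Q4*, -0.42 ± 0.25 and 0.55 ± 0.24 for *H2-M3*, -3.48 ± 1.61 and 1.48 ± 0.81 for *H2-Q6*, and -1.98 ± 1.17 and 2.10 ± 0.86 for *H2-Q7*. These were below 0 in males and above 0 in females, as *H2-K1* and *H2-D1* were, and the mean levels of *H2-Q6* and *H2-Q7* were only 0.787 and 0.577 CPM. Not all heavy chains of the list had these directions. *H2-T23* was below 0 in both sexes, at -0.91 ± 0.32 in males and -0.04 ± 0.29 in females. *H2-T24* had the reverse, at 0.14 ± 0.22 in males and -0.41 ± 0.26 in females, and neither gene was called. The most abundant partners, the chaperones *Canx* and *Calr*, had log2FC of -0.06 ± 0.12 and 0.12 ± 0.13 in males and of 0.03 ± 0.12 and 0.04 ± 0.13 in females.

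The class II genes had log2FC below 0 in both sexes. Their mean levels per kilobase of exon ran from 0.678 CPM for *H2-Aa* to 7.04 CPM for *Cd74*, all below the class I genes. *Cd74*, the invariant chain, on chromosome 18, had estimated levels of 18.6 CPM in WT male, 9.73 CPM in KO male, 13.0 CPM in WT female and 8.27 CPM in KO female libraries. The 2 KO groups thus lay below both WT groups. Averaged over the sexes, *Cd74* fell by 0.79 ± 0.20 on the log2 scale (-1.22 to -0.36, adjusted p = 0.0274), to 0.577 times the WT level, a call that the Benjamini-Yekutieli adjustment ended (adjusted p = 0.281). For this mean effect 9.07% of all genes were called and 5.2% were called lower, and *Cd74* was the 1 called of the 10, although 3 of the 10 had an unadjusted p under 0.05 (27.9% of all genes). Taken apart, the effect was -0.93 ± 0.27 in males (adjusted p = 0.0590) and -0.65 ± 0.30 in females (adjusted p = 0.300), and the difference between them was 0.28 ± 0.40 (-0.58 to 1.14, adjusted p = 0.925).

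*H2-Ab1*, the β chain of the A molecule (plus strand, chr17:34257689-34269419), had estimated levels of 6.46 CPM in WT male, 3.90 CPM in KO male, 4.49 CPM in WT female and 3.62 CPM in KO female libraries. *H2-Aa*, the α chain (minus strand, chr17:34282744-34287823), had 3.57, 2.23, 2.77 and 1.99 CPM in the same order. *H2-Eb1* (plus strand, chr17:34305867-34316674) had 3.82, 2.89, 2.71 and 1.99 CPM. In each of the 3 genes the KO level was below the WT level of the same sex, and none of these differences was called. The mean effects over both sexes were -0.52 ± 0.26 for *H2-Ab1* (adjusted p = 0.208), -0.58 ± 0.27 for *H2-Aa* (adjusted p = 0.180) and -0.42 ± 0.29 for *H2-Eb1* (adjusted p = 0.357). Their interactions, at 0.42, 0.20 and -0.04, had SE of 0.52 to 0.59, so a difference between the sexes as large as that of *H2-D1* lies within the confidence interval of *H2-Ab1*, which reached 1.53, and outside those of *H2-Aa*, up to 1.36, and *H2-Eb1*, up to 1.22.

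The promoter windows of *H2-Aa*, at chr17:34287824-34288013 (minus strand), and *H2-Eb1*, at chr17:34305677-34305866 (plus strand), are shown for comparison with those of class I, with the same motifs in capitals. No window of *H2-Ab1* was at hand.
H2-Aa: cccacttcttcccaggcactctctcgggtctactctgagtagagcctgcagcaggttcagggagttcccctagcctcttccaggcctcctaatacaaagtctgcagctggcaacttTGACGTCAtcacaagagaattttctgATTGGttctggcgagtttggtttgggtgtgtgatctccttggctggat
H2-Eb1: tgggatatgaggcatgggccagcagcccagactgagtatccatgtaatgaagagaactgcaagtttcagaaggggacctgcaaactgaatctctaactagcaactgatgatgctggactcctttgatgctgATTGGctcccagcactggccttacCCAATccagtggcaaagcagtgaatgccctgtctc
Neither window held the κB, interferon consensus or ISRE letters. *H2-Aa* held TGACGTCA, which 1.55% of all windows held, and a reverse CCAAT box, and *H2-Eb1* held 2 CCAAT boxes, 1 on each strand. These CCAAT boxes lay 59 to 31 bases before the start.

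Among the partners and regulators of class II, 16 of 21 had values, and their effects were mixed, with medians of -0.19 in males and 0.10 in females. In males 1 of the 16 was called, compared with 5.47% of all genes. In females 1 was called higher and 1 lower, where 1.42% of all genes were called. The interaction was called for none of the 16 (0.543% of all genes). *Ifi30*, a thiol reductase that unfolds antigens in the endosome, rose by 0.74 ± 0.17 in females (adjusted p = 0.0481), with a log2FC of -0.40 ± 0.17 in males (adjusted p = 0.175) and an interaction of 1.14 ± 0.24 (adjusted p = 0.0530). *Cd40*, a receptor by which helper T cells activate antigen-presenting cells, fell by 1.81 ± 0.42 in females (adjusted p = 0.0492). Its log2FC in males was -0.66 ± 0.33 (adjusted p = 0.263), and its interaction was -1.14 ± 0.53 (adjusted p = 0.490). The mean effect of *Cd40* over both sexes was -1.23 ± 0.27 (adjusted p = 0.0144). *Rfx5*, a subunit of the factor that binds class II promoters, fell by 0.53 ± 0.14 in males (adjusted p = 0.0491). Its log2FC in females was -0.17 ± 0.16 (adjusted p = 0.635), and its interaction was 0.36 ± 0.21 (adjusted p = 0.641). The lysosomal proteases *Ctsl* and *Lgmn*, the most abundant of the list, were not called in either sex.

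The leukocyte genes had mean levels of 1.91 to 19.8 CPM, with log2FC below 0 in males and above 0 in females. *Lyz2* (minus strand, chr10:117277331-117282321) had estimated levels of 20.9 CPM in WT male, 12.2 CPM in KO male, 13.7 CPM in WT female and 43.4 CPM in KO female libraries. The KO female level was the highest, as in class I. Its log2FC in females, 1.66 ± 0.39 (0.81 to 2.50, adjusted p = 0.0556), was the largest of the 10 genes at 3.16-fold, and missed the threshold. In males it was -0.78 ± 0.45 (-1.74 to 0.18, adjusted p = 0.328), and the interaction was 2.43 ± 0.60 (adjusted p = 0.0980). Of the 50-base windows of *Lyz2*, 15.4% also occur in *Lyz1*, its near-identical neighbour, for which no value was at hand, so its reads are uncertain to that extent.

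*Ptprc* (minus strand, chr1:138062861-138175708), the general leukocyte marker, had estimated levels of 2.87 CPM in WT male, 1.07 CPM in KO male, 1.53 CPM in WT female and 2.85 CPM in KO female libraries. Its level per kilobase, 0.104 CPM, was the lowest of the 10, and its SE were the largest. The log2FC was -1.42 ± 0.65 in males (-2.82 to -0.03, adjusted p = 0.218) and 0.89 ± 0.56 in females (-0.31 to 2.10, adjusted p = 0.457), with an interaction of 2.32 ± 0.86 (0.47 to 4.17, adjusted p = 0.322). *Csf1r*, on chromosome 18, had 12.1 CPM in WT male, 8.06 CPM in KO male, 9.28 CPM in WT female and 10.1 CPM in KO female libraries. Its log2FC of -0.59 ± 0.29 in males (adjusted p = 0.255) and 0.12 ± 0.29 in females (-0.50 to 0.74, adjusted p = 0.867) were the smallest of the 3 leukocyte genes in either sex.

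**Figure D3:**
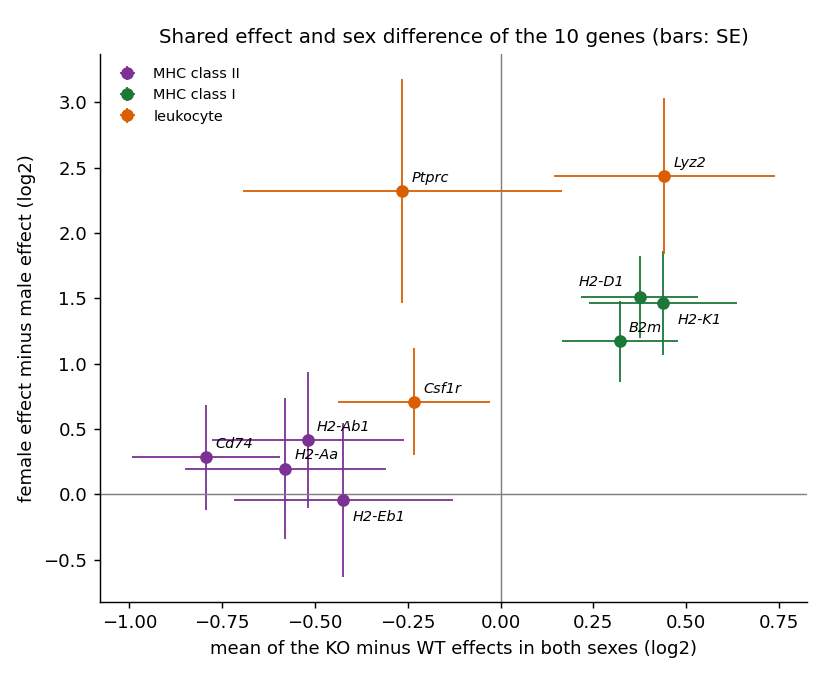
Mean of the KO minus WT effects in both sexes (x axis, log2) against the effect in females minus that in males (y axis, log2) for the 10 genes, with bars of 1 SE. The 4 class II genes lie at mean effects of -0.79 to -0.42 with interactions of -0.04 to 0.42, and the class I genes at 0.32 to 0.44 with interactions of 1.17 to 1.51.

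The sex term was not called for any of the 10 genes (0.0316% of all genes, 5 in number), and none had an unadjusted p under 0.05 (3.74% of all genes). It comes from another fit, whose median SE over all genes was 0.154, against 0.132 for the mean KO effect. The 2 SE were 0.651 and 0.155 for *Slc4a11* and 0.269 and 0.157 for *H2-D1*, though 0.292 and 0.295 for *H2-Eb1*. A sex difference was thus mostly harder to call than a mean KO effect. The difference of females minus males over both genotypes was 0.57 ± 0.30 for *H2-K1*, 0.51 ± 0.27 for *H2-D1*, 0.39 ± 0.23 for *B2m* and 0.61 ± 0.45 for *Lyz2*, with adjusted p of 0.882. In WT mice the estimated level of each of these genes was lower in females than in males, for *H2-D1* 171 against 203 CPM. Only in KO mice was it higher in females, for *H2-D1* 374 against 156 CPM. For the class II genes it ran from -0.52 ± 0.29 for *H2-Eb1* to -0.27 ± 0.29 for *H2-Aa*. *Csf1r*, at -0.03 ± 0.22 (-0.50 to 0.44), had the value nearest to 0.

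Macrophage markers had effects in the directions of the leukocyte genes. Of 29 listed macrophage and monocyte markers, 21 had values, and 19 of these were below 0 in males and above 0 in females (18.1% of all genes), as *Lyz2*, *Ptprc* and *Csf1r* were. Their median log2FC was -1.02 in males and 0.77 in females, and their summed level was 78.6 CPM in WT male, 38.0 CPM in KO male, 48.8 CPM in WT female and 99.4 CPM in KO female libraries. None was called in males, in females or in their difference. At an unadjusted p under 0.05 there were 9 of the 21 in males (21.9% of all genes), 6 in females (15.9%) and 13 for the interaction (10.2%). The most abundant, *Mpeg1*, which encodes the pore-forming protein perforin-2, had a log2FC of -1.76 ± 0.82 in males (adjusted p = 0.228) and 1.82 ± 0.62 in females (adjusted p = 0.167). The next, *Mrc1*, was the 1 marker above 0 in males, at 0.34 ± 0.42 (adjusted p = 0.655), with 0.88 ± 0.42 in females (adjusted p = 0.325). The 1 marker below 0 in females was *Aif1*, at -0.57 ± 0.41 (adjusted p = 0.522), with -1.24 ± 0.49 in males (adjusted p = 0.154). The adhesion receptor F4/80 (*Adgre1*), *Cd68*, *Aif1* and the C1q genes were among those with values, and *Cd163*, *Lyve1*, *Trem2*, *Ly6c2*, *Folr2* and *Timd4* among those without.

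Genes shared by all leukocytes had effects in the same directions. Of 24 listed, 13 had values, and 12 of the 13 were below 0 in males and above 0 in females (18.1% of all genes), with medians of -1.43 and 1.16. Their summed level was 73.6 CPM in WT male, 45.9 CPM in KO male, 56.8 CPM in WT female and 84.5 CPM in KO female libraries. Much of it came from *Arhgdib*, with 20.9, 15.1, 21.3 and 22.1 CPM in the same order, and *Ptpn6*, with 14.4, 16.4, 15.2 and 20.0 CPM. Their log2FC in males and females were -0.47 ± 0.20 and 0.06 ± 0.19 for *Arhgdib* and 0.19 ± 0.17 and 0.39 ± 0.17 for *Ptpn6*, none of them called. *Hcls1*, a cortactin homologue of blood cells, had a called interaction of 3.44 ± 0.70 (adjusted p = 0.0454), with -1.89 ± 0.53 in males (adjusted p = 0.0560) and 1.54 ± 0.45 in females (adjusted p = 0.109). The part of macrophage and other leukocyte RNA in the values of the class I, class II and leukocyte genes was not tested.

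Few markers of other leukocytes had values. Of 11 dendritic cell markers 2 had values, *Zbtb46* and *Cd83*, while *Itgax*, *Flt3*, *Xcr1*, *Clec9a* and *Cd207* had none. Both were below 0 in males and in females, as the class II genes were, and the summed level was 30.9 CPM in WT male, 23.3 CPM in KO male, 24.5 CPM in WT female and 19.6 CPM in KO female libraries, nearly all of it from *Zbtb46*. The mean level of *Zbtb46* was 23.1 CPM, above the 1.91 CPM of *Ptprc*. Whether the *Zbtb46* reads came from dendritic cells was not tested. Of 18 T cell and NK cell markers 2 had values, *Lck* and *Cd5*, and none of the T cell receptor genes did. Of 10 B cell markers *Ighm* alone had a value, and of 15 neutrophil and mast cell markers *Csf3r* and *Kit* had values. Summed levels of these 3 lists were at most 3.04 CPM in any group, and none of their genes was called.

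Genes that interferons induce, a pathway that raises class I transcription, were below 0 in males in 30 of the 30 with values, of 33 listed, with a median log2FC of -0.64, and above 0 in females in 28 of the 30, with a median of 0.31. In males 7 of the 30 were called, all lower, compared with 3.17% of all genes, and among them were *Stat2*, a subunit of the factor that binds the ISRE, which fell by 0.89 ± 0.14 (adjusted p = 0.00377), *Oasl2*, which fell by 1.26 ± 0.22 (adjusted p = 0.00712), and *Ifit3*, which fell by 1.54 ± 0.32 (adjusted p = 0.0141), both antiviral genes. In females none of the 30 was called, and 7 had an unadjusted p under 0.05 (15.9% of all genes). The interaction was called for *Stat2* alone (0.543% of all genes), at 1.23 ± 0.20 (adjusted p = 0.0212). At an unadjusted p under 0.05 there were 22 of the 30 for the interaction (10.2% of all genes) and 20 in males (21.9%). The median of this list was thus larger in size in males and that of class I in females, a contrast that was not tested. Of 18 receptors and ligands for interferons and for CSF1, 13 had values, and *Csf1*, which encodes the ligand of the *Csf1r* product, fell by 0.49 ± 0.12 in males (adjusted p = 0.0332), with 0.03 ± 0.12 in females (adjusted p = 0.925).

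Complement genes, of which 17 of 20 had values and 3 (*C1qa*, *C1qb* and *C1qc*) are also macrophage markers, included *C4b*, *C1s1* and *C1ra*, which were called lower in males. *C4b*, the complement component 4 gene of the MHC region, had the largest difference between the sexes of the 3 list genes in which it was called, with an interaction of 4.40 ± 0.62 (adjusted p = 0.0127). Its estimated level was 44.6 CPM in WT male, 3.70 CPM in KO male, 27.9 CPM in WT female and 48.8 CPM in KO female libraries. Of 28 cytokine and chemokine genes 12 had values, and the adhesion genes *Icam1* and *Vcam1* in that list, by which leukocytes attach, fell in males by 1.81 ± 0.36 (adjusted p = 0.0117) and 1.26 ± 0.34 (adjusted p = 0.0489). In females their log2FC were 0.04 ± 0.29 (adjusted p = 0.957) and -1.19 ± 0.34 (adjusted p = 0.106). Averaged over the sexes the log2FC was -0.89 ± 0.23 for *Icam1* (adjusted p = 0.0309) and -1.22 ± 0.24 for *Vcam1* (adjusted p = 0.00944).

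**Figure D4:**
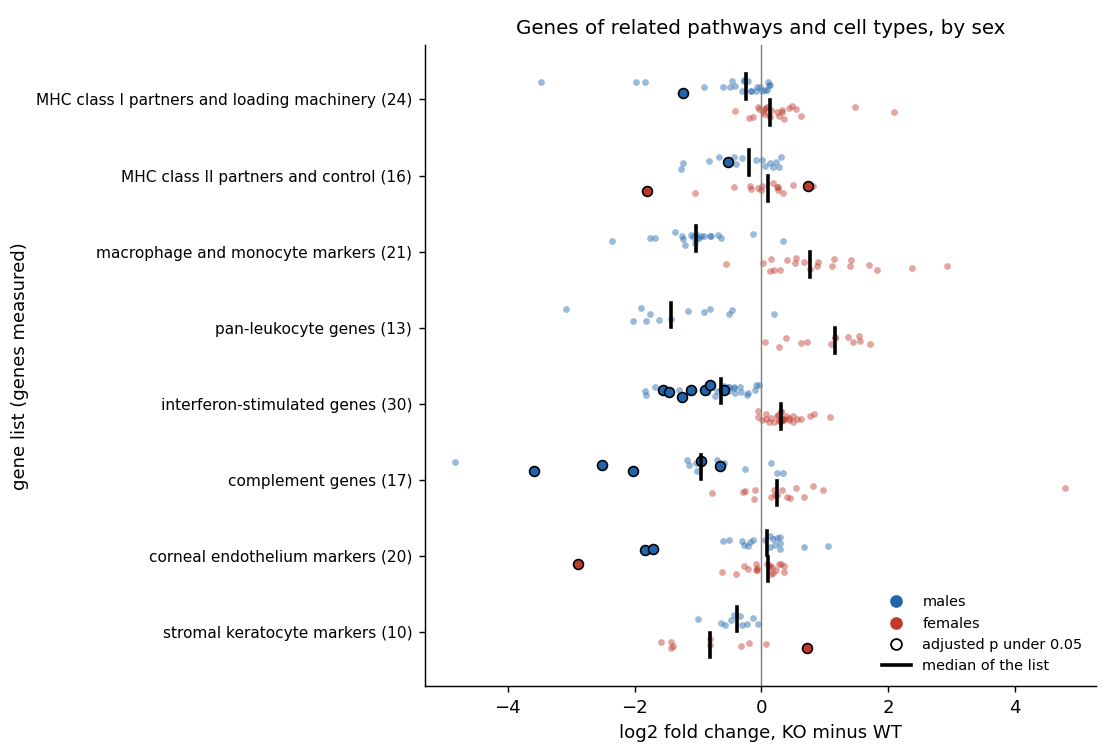
Effects of KO minus WT (x axis, log2FC) for the genes of 8 lists, each point 1 gene, blue for males and red for females, with a black bar at the median of the list and a black outline at an adjusted p under 0.05. In macrophage markers the medians lie at -1.02 in males and 0.77 in females, in pan-leukocyte genes at -1.43 and 1.16, and in interferon-stimulated genes at -0.64 and 0.31, while those of the corneal endothelial markers lie at 0.09 and 0.10.

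Summed levels of markers of tissue next to the membrane were lower in KO libraries. Averaged over the sexes, 7 of 10 stromal keratocyte markers were called lower, compared with 5.2% of all genes. In females 2 of the 10 were above 0, and 1 of these was called higher (0.474% of all genes). The 10 markers had summed levels of 18118 CPM in WT male, 13148 CPM in KO male, 17931 CPM in WT female and 10295 CPM in KO female libraries, with median log2FC of -0.38 in males and -0.81 in females. In both sexes the KO sum was lower, the direction of the class II genes, and in females the opposite of class I and *Lyz2*. Iris pigment cell markers, 6 of 7 with values, had summed levels of 35.9 CPM in WT male, 14.2 CPM in KO male, 46.5 CPM in WT female and 6.34 CPM in KO female libraries. Corneal epithelial markers, 11 of 11 with values, summed to 2748, 1847, 2648 and 2388 CPM in the same order, most of it from *Aldh3a1* and *Clu*, without which the 9 others summed to 240, 137, 114 and 57.8 CPM. Their median log2FC over all 11 was -0.69 in males and -1.04 in females. Blood and vessel markers, 6 of 11 with values, summed to 114, 94.6, 115 and 60.0 CPM, and lens, muscle and nerve markers, 11 of 13 with values, to 608, 518, 583 and 545 CPM. The part of stroma, iris or epithelium in the class II values was not tested.

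Over the 8796 genes with a mean of at least 10 CPM, likeness to each role was measured as the distance between its median effects in males, in females and of sex and those of the gene, on the log2 scale. Nearest to class I were *Trmt6* at 0.196, *Angpt2* at 0.293 and *Igfbp5* at 0.295. Nearest to class II were *Dnah7b* at 0.105, *Cacnb1* at 0.108 and *Arid3a* at 0.113, and nearest to the leukocyte genes were *Haao* at 0.237, *Adamts5* at 0.249 and *Gm42047* at 0.288. None of these genes stands in any of the lists.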

How the data were processed

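Total RNA of low input from 12 libraries was sequenced by the authors as stranded 50-base read pairs, aligned to GRCm38 with HISAT2, converted to CPM with TMM normalization and fitted with limma and voom in a design of genotype, sex and their interaction. Versions, counter and annotation are not given in the sources used here. The authors deposited 3 tables of 15838 genes (genotype, sex, interaction), which hold their own comparisons and were used because no values per library were at hand. In these deposited tables log2FC and mean CPM are log2 values, t and the log-odds are each a score, and each p-value has an adjusted p-value. Depth is unknown, so no counting interval was computed. Per-sample columns not used numbered 0.

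The SE was taken as log2FC divided by t. The SE of the interaction was 1.42 times that of genotype at the median, as for an effect in 1 sex, and the genotype term was taken for the effect in males because its SE were small for Y-linked genes and large for Xist. Adding the interaction to it gives the effect in females, with a squared SE equal to the difference of theirs. The mean effect is the average of both. Degrees of freedom implied by t and p were 13.8, and 14.6 for sex, whose table comes from another fit, so group levels mix 2 fits. Benjamini-Hochberg adjustment ran over 15838 genes for each contrast, and differed from the deposited values by at most 2.87e-07. The derivation was tested on simulated data with limma 3.58.1 in R 4.3.3, and the rest was computed with Python 3.11.15, pandas 2.3.3 and SciPy 1.17.1. Positions and exon lengths come from GENCODE M21, promoters from RefSeq.

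The 10 genes, the lists and the motifs were chosen with earlier results of these data known. From each list were named the genes called in either sex or for the interaction, at most the 6 with the smallest p, and the 2 with the highest mean level, and not every one of these is printed. For each role the 3 nearest genes of at least 10 CPM were named. Markers named only as having or lacking a value were chosen after that was seen. Alternatives were the Benjamini-Yekutieli and Holm adjustments, a minimum mean of 1 or 10 CPM, 1 adjustment over several contrasts, a further threshold of |log2FC| > 1, and a sex difference of 0 for the group levels.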

Additional observations from a re-analysis of the deposited data

Results flagged for a closer look

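A difference of the knockout effect between the sexes was called by limma for 3 genes of the lists, and for none of the 10 genes themselves. *C4b* had an interaction of 4.40 ± 0.62 (adjusted p = 0.0127), *Hcls1* of 3.44 ± 0.70 (adjusted p = 0.0454) and *Stat2* of 1.23 ± 0.20 (adjusted p = 0.0212), each on the log2 scale with the effect lower in males than in females. Single libraries far from the others could not be looked for, since no values per library were at hand.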

How the results depend on the processing

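The alternatives act on the adjustment of p-values or on the levels and leave each log2FC as it is. The 40 estimated group levels moved by less than the spread between libraries that the SE implies when the sex difference was set to 0. In males 0 of the 10 genes were called, and 1 (*Cd74*, adjusted p = 0.0443) when only genes with a mean of at least 10 CPM, 5 of the 10, were adjusted. In females the count of 1 became 4 under that minimum (*H2-K1* at 0.0391, *H2-D1*, *B2m* at 0.0408 and *Lyz2* at 0.0375) and 3 with 1 adjustment over males, females and interaction (*H2-K1* at 0.0483, *H2-D1* and *Lyz2* at 0.0463). It became 0 with the Benjamini-Yekutieli adjustment, where *H2-D1* had 0.230, and 0 with Holm's. For the interaction the count of 0 became 1 (*H2-D1*) under the 10 CPM minimum and 1 with 1 adjustment over males, interaction and sex. For the mean of both sexes the count of 1 (*Cd74*) became 0 with the Benjamini-Yekutieli adjustment (0.281), 0 with Holm's and 0 when |log2FC| > 1 was also required. None of the 10 was called for sex under any of them. Of the effects of single members under alternatives, 262 kept their side of the threshold, 8 passed it newly and 5 no longer passed it.

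Leaving out each library in turn was not run, because no values per library were at hand, so it is unknown whether 1 library decides a value. No paired analysis was possible because the libraries carry no shared replicate numbers in the labels and the tables hold 1 value per gene and contrast. Depth is unknown, and genes near 1 CPM such as *Ptprc* have wide intervals.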
